A study of Homo sapiens with 3 samples.

Results

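The enzymes that make, recycle and break down deoxynucleotides were followed through 9 genes, RRM1, RRM2, RRM2B, TYMS, TK1, DUT, DTYMK, DCK and SAMHD1, out of 18131 genes on the array. Members were the 33 probe sets whose only annotated gene symbol was 1 of these 9, out of 44988 probe sets with a single symbol. A probe set is a group of short probes read together as 1 value. Intensities below 25.96, the median of all values on the 3 arrays, were raised to that floor, and a probe set counted as measured when at least 1 array lay above it. By this rule 26 member probe sets were measured, 24 of them above the floor on all 3 arrays, and 7 were not measured. A probe set that was measured through 1 array alone had to differ between arrays.

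The study used LNCaP, an established human prostate cancer line, and Affymetrix arrays of 49388 probe sets. The groups were HOXD-AS1 siRNA 1, HOXD-AS1 siRNA 2 and control siRNA, with 1 array each. HOXD-AS1 is a long non-coding RNA. All groups received 75 nM siRNA by lipid transfection for 48 h, in medium with serum and without phenol red. The source label was LNCaP-Bic for siRNA 1, LNCaP-AI for siRNA 2 and LNCaP for control, whereas the cell line label was LNCaP throughout, so that siRNA and any difference in cells cannot be told apart. The labelled inhibition rate relative to control was 0.23 for siRNA 1, 0.25 for siRNA 2 and 1 for control, with no statement of whether it is a remaining or a lost level. The label for the siRNA target position, 588 for siRNA 1 and 1290 for siRNA 2, names the WDR5 coding sequence. Of the 44988 single-symbol probe sets, 0 were annotated to HAGLR, the current name of HOXD-AS1, so the knockdown itself was not read here.

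With 1 array per group there was no replicate, no test and no estimate of array error. Differences are log2 intensity on the siRNA array minus log2 intensity on the control array, and several probe sets of a gene share their target and are not replicates. Both siRNA differences use the same control array. Array medians were 25.7 for siRNA 1, 26.1 for siRNA 2 and 26.1 for control. Over all 23896 measured probe sets the median difference was 0 for each siRNA, and the range from the 5th to the 95th percentile was -0.62 to 0.66 for siRNA 1 and -0.59 to 0.54 for siRNA 2. Of the 10 luminal prostate markers, 7 had a single-symbol probe set and all 7 were measured, among them KLK3 with intensities of 2329, 1931 and 2602 for siRNA 1, siRNA 2 and control. Their summed intensity was 13990 with siRNA 1, 11633 with siRNA 2 and 13396 in control. The brightest of them, KLK2 (5176 in control), weighs most in this sum. Single markers went both ways. They ran from -0.91 (SLC45A3) to 0.53 (TMPRSS2) with siRNA 1 and from -0.68 (KLK2) to 0.40 (KRT8) with siRNA 2. The sum therefore does not show that these markers were steady. Of 12 markers of other cell types 11 were on the array and 4 (VIM, KRT14, CD68 and COL1A1) were measured, with sums of 801, 965 and 859 for siRNA 1, siRNA 2 and control. KRT5, COL1A2, DCN, PECAM1, PTPRC, CD3E and CHGA, which mark basal, stromal, endothelial, immune and neuroendocrine cells, were below the floor on every array. The measured KRT14, COL1A1 and CD68, however, also mark basal, stromal and immune cells, in that order. Each lay above the floor on every array. Absence of basal, stromal or immune cells can therefore not be read from this list.

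Cells make deoxynucleotides mainly with ribonucleotide reductase, which reduces ribonucleoside diphosphates and consists of the large subunit RRM1 paired with a small subunit, either RRM2 or RRM2B. RRM2 is the S-phase subunit, whereas RRM2B is induced by DNA damage and serves DNA repair and mitochondrial DNA in cells that are not replicating. Thymidine nucleotides need further enzymes (TYMS, TK1, DTYMK and DUT), DCK recycles deoxynucleosides, and SAMHD1 cleaves deoxynucleoside triphosphates.

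Most member probe sets were lower than control on each siRNA array. RRM2B stood outside this with both siRNAs, and SAMHD1 with siRNA 1. The median difference over the 26 measured member probe sets was -0.69 with siRNA 1 and -0.28 with siRNA 2, against 0 over all measured probe sets. With siRNA 1, 20 of 26 member probe sets were lower than in control by any amount, where 48.3% of all measured probe sets were. With siRNA 2, 22 of 26 were lower, where 50% of all were. At least 2-fold lower were 5 of 26 with siRNA 1, from RRM2, TK1 and DTYMK, beside a background of 1.5%. With siRNA 2 this was 1 of 26, a probe set of RRM2, beside 0.644%. In these bulk samples fewer cells in S phase and less RNA per cell cannot be told apart.

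The same order was seen at a smaller threshold. With siRNA 1, 14 of 26 member probe sets (53.8%) were at least 1.5-fold lower, from every gene except RRM2B and SAMHD1, beside 5.65% of all. With siRNA 2, 7 of 26 (26.9%) were at least 1.5-fold lower, from RRM1, RRM2, DUT, DTYMK and SAMHD1, beside 5.22% of all. No member probe set was 1.5-fold higher with siRNA 1 (0 of 26, background 6.57%) or with siRNA 2 (0 of 26, background 3.98%). The shares of members that were lower thus lay above the background for each siRNA, and no test of this was possible.

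**Figure D1:**
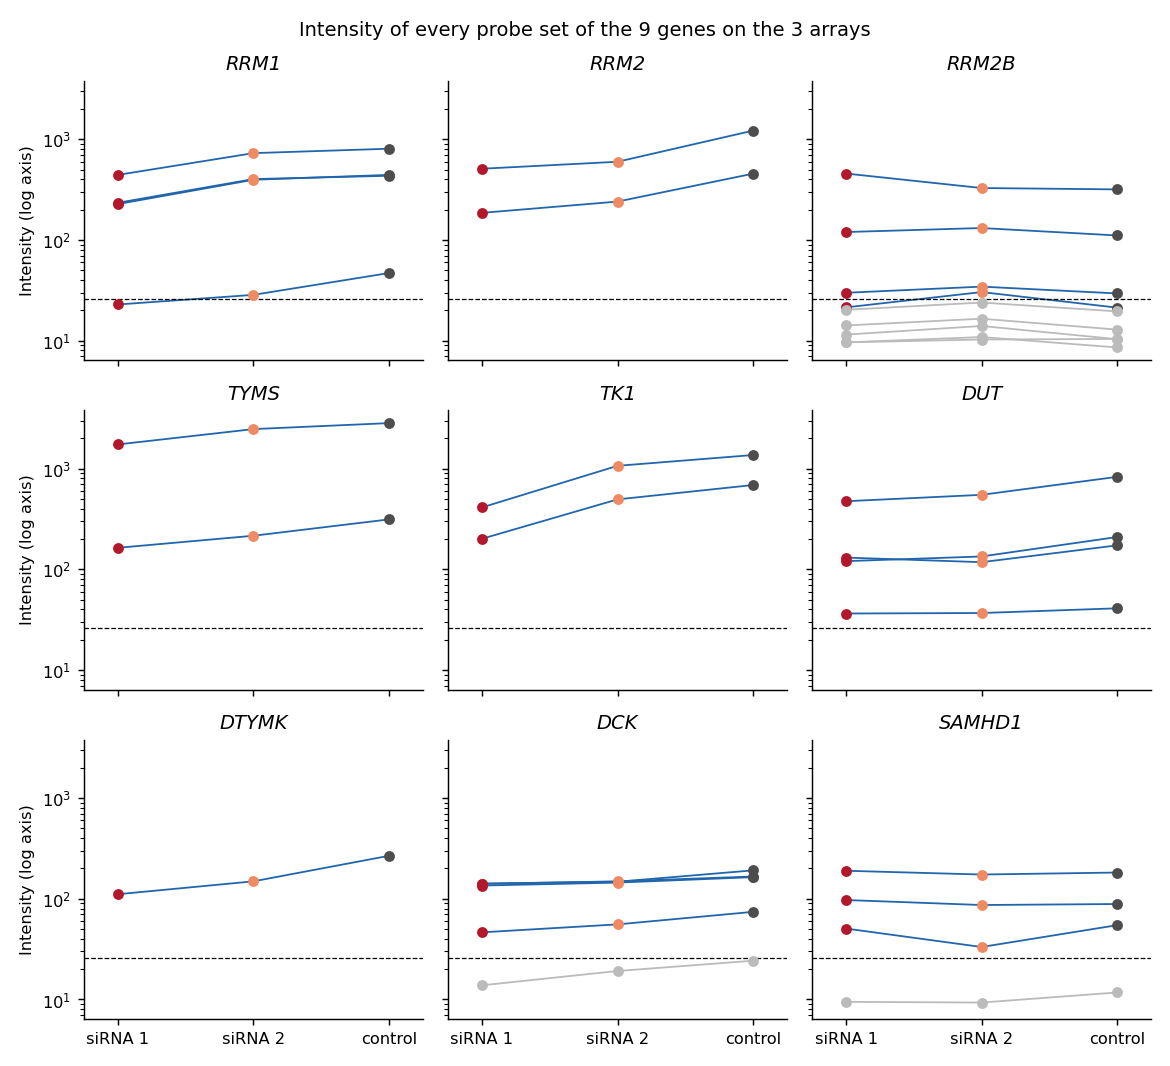
Intensity (log axis) of each of the 33 member probe sets on the siRNA 1, siRNA 2 and control arrays, 1 panel per gene and 1 line per probe set. The dashed line is the floor of 25.96, grey lines are the 7 probe sets that were not measured, and the lines of RRM2, TK1 and DTYMK are lowest at siRNA 1 while most of those of RRM2B are nearly level.

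RRM2, the S-phase small subunit of ribonucleotide reductase (chr2:10122568-10211010, GRCh38.p14), was lower on both siRNA arrays. Probe set 11758219_x_at had intensities of 510 with siRNA 1 and 598 with siRNA 2, against 1218 in control, which is 2.39-fold and 2.04-fold lower. Probe set 11754360_a_at had 186 with siRNA 1 and 241 with siRNA 2, against 455 in control, which is 2.45-fold and 1.89-fold lower. Both probe sets therefore gave the same order, with siRNA 1 lowest, siRNA 2 slightly above it and control far above both. Only 0.565% of all measured probe sets were lower with siRNA 2 than 11758219_x_at, and 0.967% were lower than 11754360_a_at. The siRNA 2 difference was 81.7% of the siRNA 1 difference for 11758219_x_at and 71.3% for 11754360_a_at, on the log2 scale. An ID ending in _x_at or _s_at marks, in the array maker's naming, probes that can match more than 1 transcript.

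The stretch of 150 bases before an annotated transcription start is shown for RRM2 because it holds 3 copies of CCAAT. TK1, DTYMK and RRM1 are shown because their siRNA 1 median differences were, with that of RRM2, the lowest of the 9 genes. SAMHD1 is shown as a member whose difference was near 0. Capitals mark CCAAT, the word bound by NF-Y, an E2F word (TTCCCGC or TTGGCGC or TTCGCGC or TTGCCGC) or TTTGAA, a cell cycle word known as CHR. Words were searched on both strands, and a word on the other strand appears as its reverse complement. Sequences are from RefSeq, GRCh38.p14, read 5′ to 3′ on the strand of the gene. The stretches lie at chr2:10122589-10122738 (plus strand) for RRM2, chr17:78187053-78187202 (minus) for TK1, chr2:241686816-241686965 (minus) for DTYMK, chr11:4094535-4094684 (plus) for RRM1 and chr20:36951709-36951858 (minus) for SAMHD1.
RRM2: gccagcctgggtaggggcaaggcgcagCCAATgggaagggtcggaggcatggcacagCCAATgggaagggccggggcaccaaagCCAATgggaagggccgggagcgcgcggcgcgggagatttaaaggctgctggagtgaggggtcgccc
TK1: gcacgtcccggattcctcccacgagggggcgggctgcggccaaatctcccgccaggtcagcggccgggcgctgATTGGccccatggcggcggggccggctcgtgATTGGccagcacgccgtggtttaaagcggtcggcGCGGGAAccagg
DTYMK: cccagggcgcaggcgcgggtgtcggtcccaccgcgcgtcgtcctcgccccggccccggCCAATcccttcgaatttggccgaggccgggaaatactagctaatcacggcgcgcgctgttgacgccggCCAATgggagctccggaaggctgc
RRM1: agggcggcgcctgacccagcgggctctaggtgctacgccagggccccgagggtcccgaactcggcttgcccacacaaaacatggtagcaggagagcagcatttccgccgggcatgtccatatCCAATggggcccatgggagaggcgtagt
SAMHD1: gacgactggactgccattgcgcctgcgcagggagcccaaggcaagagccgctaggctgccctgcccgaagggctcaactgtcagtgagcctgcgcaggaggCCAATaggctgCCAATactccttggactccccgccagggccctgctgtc

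The RRM2 stretch held 3 CCAAT words whose first bases lay at -123, -93 and -66 from the start, a count that 3.26% of all 35116 promoter windows reached. This start was chosen for its CCAAT count, and the window of the other annotated RRM2 start held 1 CCAAT, at -249, and an E2F word, at -192. Each window runs from 250 bases before to 50 bases after an annotated start. TK1 held 2 CCAAT words on the other strand, at -77 and -46, with an E2F word at -12. DTYMK held 2 CCAAT words, at -92 and -24. SAMHD1 held 2 CCAAT words as well, at -49 and -38. Whether any of these words bears on the differences was not tested. RRM1 held CCAAT at -28, with an E2F word at -223 and TTTGAA at -199, both upstream of the stretch printed.

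RRM2B had no window in the promoter set used, so it was not searched. Over the 8 member genes with a window (13 windows, since some genes have several annotated starts), CCAAT was found in 5 genes and 6 windows, beside 34.6% of all windows. An E2F word was found in 6 genes and 6 windows, beside 12.97% of all windows. TTTGAA was found in 2 genes and 2 windows, those of RRM1 and DUT, beside 15.2% of all. DCK held 3 E2F words in its single window, and TYMS held 1, at -39. A match is a run of letters and no measure of binding, and words can be absent from a window while present elsewhere.

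**Figure D2:**
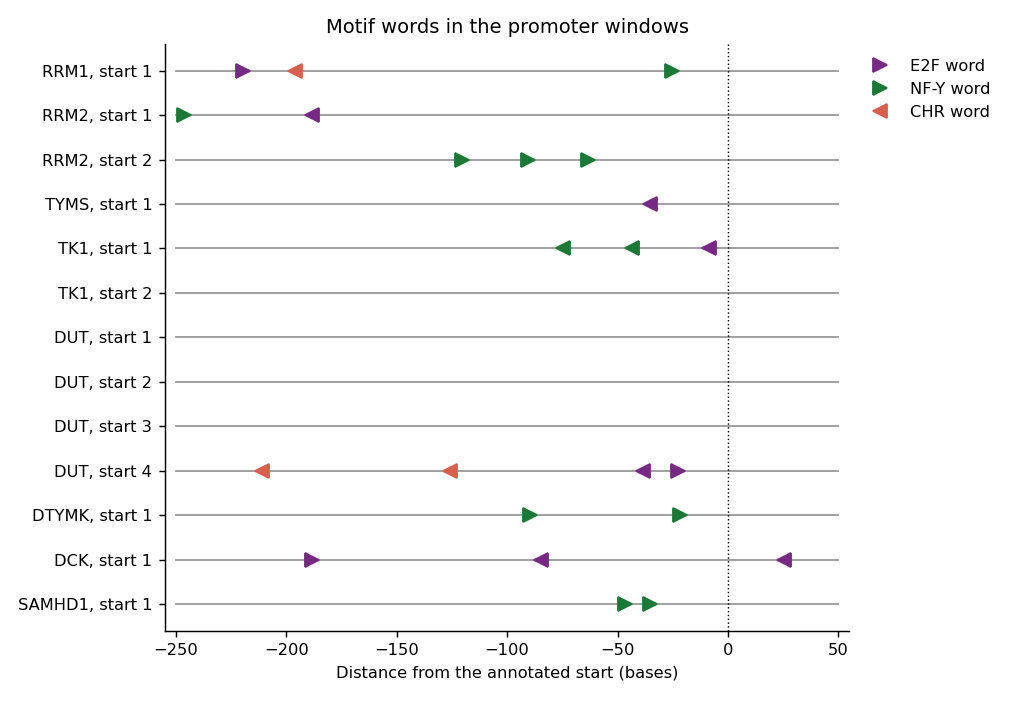
Position of each motif word (arrowheads, pointing right for the strand of the gene) in the 13 promoter windows of 8 member genes, against distance from the annotated start in bases. CCAAT, labelled NF-Y word, occurs 3 times before the second start of RRM2, and 4 windows, of TK1 and DUT, hold no word.

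RRM1, the large catalytic subunit (chr11:4094685-4138932), was clearly lower with siRNA 1 but only slightly lower with siRNA 2. Probe set 11743604_s_at had intensities of 443 with siRNA 1 and 728 with siRNA 2, against 806 in control. Probe set 11750667_a_at had 234 with siRNA 1 and 402 with siRNA 2, against 434 in control. Probe set 11743603_a_at had 227 with siRNA 1 and 396 with siRNA 2, against 443 in control. In all 3 the siRNA 2 array lay close to control and the siRNA 1 array well below both. The differences of these probe sets lay between -0.96 and -0.86 for siRNA 1 and between -0.16 and -0.11 for siRNA 2. The siRNA 1 array was 0.72 to 0.80 below the siRNA 2 array on the log2 scale. The dim probe set 11743602_a_at went another way. It had 22.9 with siRNA 1, below the floor, and 28.5 with siRNA 2, against 46.9 in control. This was at least 1.81-fold below control for siRNA 1 and 1.65-fold below it for siRNA 2.

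The damage-inducible small subunit RRM2B (chr8:102204501-102238961) was nearly level across the arrays by most of its probe sets. It had 9 probe sets, of which 4 were measured. The brightest, 11736192_at, had intensities of 457 with siRNA 1 and 328 with siRNA 2, against 318 in control, which is 1.44-fold and 1.03-fold higher. With siRNA 1, 8.55% of all measured probe sets were higher than this one. Probe set 11736193_a_at had 120 with siRNA 1 and 131 with siRNA 2, against 111 in control. These 2 probe sets placed the highest value on different arrays, the first on siRNA 1 and the second on siRNA 2. Probe set 11754178_x_at had 29.9 with siRNA 1 and 34.4 with siRNA 2, against 29.4 in control, all close to the floor. Probe set 11753877_x_at had 21.4 with siRNA 1 and 30.4 with siRNA 2, against 21.3 in control, and was measured through the siRNA 2 array alone.

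The RRM2B median over these 4 was 0.07 with siRNA 1 and 0.23 with siRNA 2. For 11753877_x_at the floor sets the siRNA 1 difference to 0, and its selection through the siRNA 2 array makes that difference positive. Without it the RRM2B medians were 0.11 with siRNA 1 and 0.22 with siRNA 2. The other 5 RRM2B probe sets lay below the floor on every array. Without the floor, 8 of 9 RRM2B probe sets were higher than control with siRNA 1 and 8 of 9 with siRNA 2, with medians of 0.11 and 0.29. Values under the floor have no reliable order, so these are given as a description of the dim probe sets.

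The contrast between the small subunits was a difference of differences, since levels of separate probe sets cannot be set against each other. RRM2 was lower by more than RRM2B was higher on both siRNA arrays. RRM2 had a median of -1.27 and RRM2B of 0.07 with siRNA 1, so that RRM2 minus RRM2B was -1.34, a 2.53-fold change in their ratio. With siRNA 2 the medians were -0.97 and 0.23, and RRM2 minus RRM2B was -1.20, a 2.30-fold change. Leaving out 11753877_x_at, over the 3 RRM2B probe sets above the floor on all arrays, RRM2 minus RRM2B was -1.39 with siRNA 1 and -1.20 with siRNA 2. Single pairings of an RRM2 with one of these RRM2B probe sets lay between -1.81 and -1.28 for siRNA 1 and between -1.27 and -0.97 for siRNA 2. Most of the contrast thus came from RRM2, and the ratio within an array shows an unequal change and not that RRM2B stayed constant.

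**Figure D3:**
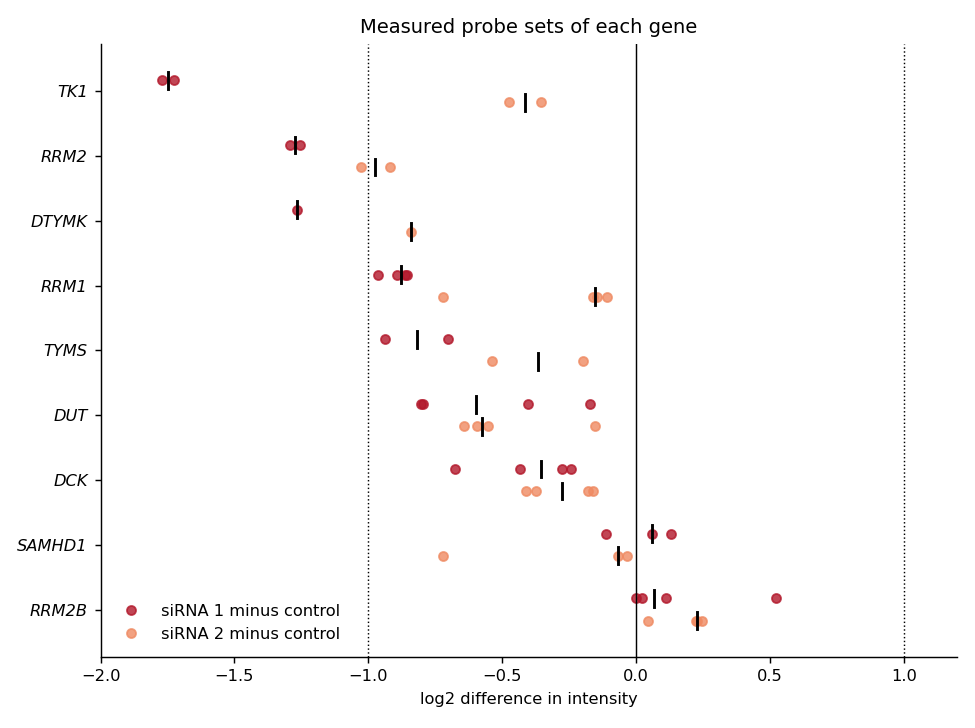
log2 difference in intensity from control for each measured member probe set (dots), siRNA 1 above siRNA 2 within a gene, with the median of the gene as a black tick and dotted lines at 2-fold. TK1 and RRM1 show well separated siRNA 1 and siRNA 2 medians, whereas those of RRM2, DUT and DCK lie closer together.

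TK1, the cytosolic thymidine kinase that salvages thymidine in S phase (chr17:78174079-78187204), showed the lowest siRNA 1 differences from control of the 9 genes. Probe set 11718127_at had intensities of 412 with siRNA 1 and 1067 with siRNA 2, against 1366 in control. This was 3.31-fold below control for siRNA 1 and 1.28-fold below it for siRNA 2. Probe set 11718128_x_at had 201 with siRNA 1 and 495 with siRNA 2, against 688 in control. This was 3.42-fold below control for siRNA 1 and 1.39-fold below it for siRNA 2. In both, siRNA 2 was nearer to control and siRNA 1 far below, and the siRNA 2 difference was 20.6% and 26.7% of the siRNA 1 difference.

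The siRNA arrays can also be compared directly, without the control array. TK1 was 2.59-fold lower with siRNA 1 than with siRNA 2 by 11718127_at and 2.46-fold lower by 11718128_x_at. These were the 2 of 26 member probe sets that were at least 2-fold lower with siRNA 1 than with siRNA 2, beside 0.531% of all measured probe sets. At 1.5-fold there were 5 of 26, from TK1 and RRM1, beside 4.02% of all. RRM2 had a median of -0.30 and DUT of -0.09 in the same comparison, so that the gap between the siRNAs was unequal over the members.

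TYMS, which makes thymidine monophosphate from deoxyuridine monophosphate and is the target of fluorouracil (chr18:657653-673578), was lower on both siRNA arrays. Probe set 11718058_a_at had intensities of 1740 with siRNA 1 and 2471 with siRNA 2, against 2834 in control, with differences of -0.70 and -0.20. Probe set 11751805_a_at had 164 with siRNA 1 and 216 with siRNA 2, against 313 in control, with differences of -0.94 and -0.54. Both probe sets placed siRNA 1 lowest and siRNA 2 between it and control, and they disagreed in size with siRNA 2.

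DTYMK, the kinase that turns thymidine monophosphate into the diphosphate for both the TYMS and TK1 routes (chr2:241675747-241686815), had a single probe set. Its intensity was 111 with siRNA 1 and 149 with siRNA 2, against 267 in control, which is 2.41-fold and 1.79-fold lower. Its pattern lay close to that of RRM2, with a siRNA 2 difference that was 66.5% of the siRNA 1 difference. As its ID ends in _s_at, signal from a similar transcript cannot be told apart.

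DUT, which removes deoxyuridine triphosphate and so keeps uracil out of DNA (chr15:48331095-48343373), was lower by about the same amount with each siRNA. Probe set 11726596_x_at had intensities of 475 with siRNA 1 and 550 with siRNA 2, against 830 in control. Probe set 11726595_a_at had 121 with siRNA 1 and 134 with siRNA 2, against 210 in control. Probe set 11726597_a_at had 131 with siRNA 1 and 118 with siRNA 2, against 173 in control. All 3 were below control on each siRNA array, but the last placed siRNA 2 lowest. The dimmest, 11728696_x_at, had 36.4 with siRNA 1 and 36.9 with siRNA 2, against 41.0 in control. The DUT median was -0.60 with siRNA 1 and -0.57 with siRNA 2.

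DCK, which phosphorylates deoxycytidine, deoxyadenosine and deoxyguanosine and activates drugs such as gemcitabine (chr4:70993649-71030914), was modestly lower. Its brightest probe set, 11720964_s_at, had intensities of 142 with siRNA 1 and 148 with siRNA 2, against 191 in control. The other measured probe sets lay between -0.67 and -0.24 for siRNA 1 and between -0.41 and -0.16 for siRNA 2. All 4 measured DCK probe sets were below control on both siRNA arrays, with medians of -0.36 for siRNA 1 and -0.28 for siRNA 2. The remaining DCK probe set was not measured.

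SAMHD1, the triphosphohydrolase that opposes synthesis by degrading deoxynucleoside triphosphates (chr20:36889773-36951708), was nearly level by its brighter probe sets. Probe set 11749510_a_at had intensities of 190 with siRNA 1 and 174 with siRNA 2, against 182 in control. Probe set 11739149_a_at had 97.2 with siRNA 1 and 86.7 with siRNA 2, against 88.7 in control. A dimmer one, 11748841_a_at, had 50.6 with siRNA 1 and 33.2 with siRNA 2, against 54.7 in control. Only this last probe set differed by over 1.5-fold, and only with siRNA 2 (-0.72), whereas the brighter ones differed by -0.07 and -0.03. The remaining SAMHD1 probe set was not measured.

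**Figure D4:**
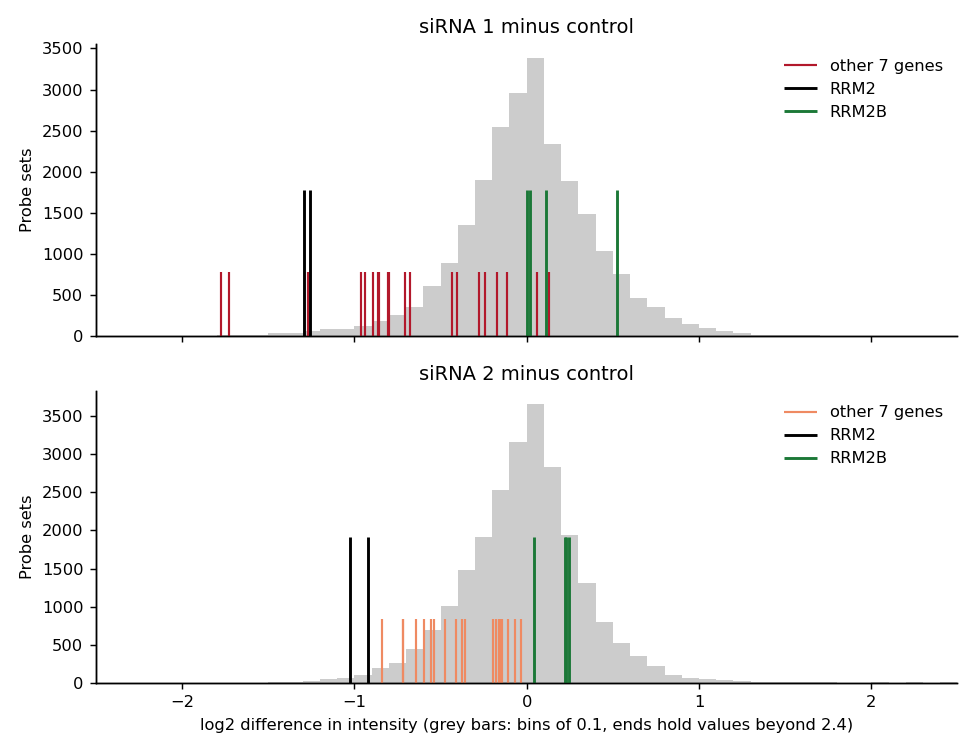
Histograms of the log2 difference in intensity from control over the 23896 measured probe sets (grey, bins of 0.1), siRNA 1 above siRNA 2, with vertical lines at the member probe sets. The RRM2 lines (black) lie in the low tail of both panels, the RRM2B lines (green) lie within the bulk, and the other 7 genes spread from the low tail to 0.13 with siRNA 1 and -0.03 with siRNA 2.

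Genes around the members were described by 1 probe set each, the one with the highest mean intensity, over 11296 measured genes. By this rule the 9 members had medians of -0.80 with siRNA 1 and -0.36 with siRNA 2, against 0.00 and 0.01 over all measured genes. In the list of other deoxynucleotide and thymidylate cycle genes, 23 of 32 were measured, with medians of -0.20 and -0.06. With siRNA 1, 7 of the 23 were at least 1.5-fold lower and 0 higher, and with siRNA 2 3 were lower and 0 higher, while 6.15% and 4.67% of all measured genes were that much lower. NUDT1, which clears oxidised purine nucleotides, had intensities of 154 with siRNA 1 and 248 with siRNA 2, against 377 in control. MTHFD1, a folate enzyme, had 244 with siRNA 1 and 235 with siRNA 2, against 386 in control. PNP, a purine salvage enzyme, had 492 with siRNA 1 and 483 with siRNA 2, against 769 in control. These 3 genes were lower on both siRNA arrays by at least 1.5-fold. NT5M, the mitochondrial nucleotidase, was lower mainly with siRNA 1, at 55.7, with 109 for siRNA 2 and 135 in control. CMPK1, a pyrimidine monophosphate kinase, was highest in the list, at 0.55 with siRNA 1 and 0.28 with siRNA 2. Next by the mean of both differences were DGUOK, the mitochondrial deoxyguanosine kinase, at 0.24 and 0.10, and AK1, an adenylate kinase, at 0.13 and 0.21. The other measured AK1 probe set did not show this, at -0.004 with siRNA 1 and -0.30 with siRNA 2.

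Ribonucleotide synthesis, which feeds ribonucleotide reductase with its substrates, had counts past 1.5-fold near the background. Of 25 genes, 24 were measured, with medians of -0.22 with siRNA 1 and -0.27 with siRNA 2. Lower by any amount were 18 with siRNA 1 and 19 with siRNA 2, beside 48.0% and 46.9% of all measured genes. At least 1.5-fold lower were 1 with siRNA 1 (4.17%) and 2 with siRNA 2 (8.33%), beside 6.15% and 4.67% of all measured genes. None was that much higher (0 and 0 of 24), beside 6.93% and 4.75%. PFAS, a purine synthesis enzyme, had the largest siRNA 2 difference in the list, with 197 for siRNA 1 and 137 for siRNA 2, against 284 in control. Its other 2 measured probe sets did not show this, with -0.01 to 0.01 for siRNA 1 and -0.05 to 0.16 for siRNA 2. DHODH, the mitochondrial pyrimidine synthesis enzyme, had -0.60 with siRNA 1 and -0.51 with siRNA 2. UCK2, a uridine-cytidine kinase, had -0.56 and -0.67 by its brightest probe set and -0.11 and -0.52 by the other. The highest by that mean were TXNRD1, the thioredoxin reductase, at 0.29 and 0.27, ADSS1 at 0.14 and 0.34, and CTPS2 at 0.25 and 0.08.

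S-phase genes, in a list that holds none of the members, were lower for 28 of 29 measured genes on each siRNA array. By 1 probe set per gene, RRM2 and DTYMK lay at the low end of these genes with siRNA 2. The list had 30 genes, with medians of -1.06 for siRNA 1 and -0.43 for siRNA 2. Over all measured genes 48.0% were lower by any amount with siRNA 1 and 46.9% with siRNA 2. At least 2-fold lower were 16 of 29 with siRNA 1, beside 1.76% of all measured genes, and 0 of 29 with siRNA 2, beside 0.602%. The 0 rests on 1 probe set per gene, as other probe sets of listed genes reached -1.10 and -1.01 with siRNA 2. With siRNA 2 none of the 29 (0) was lower than RRM2 or DTYMK, while with siRNA 1 4 were lower than RRM2 and 4 lower than DTYMK. This placement also rests on 1 probe set per gene. With siRNA 2 the other probe set at -1.10, of MCM4, lay below RRM2 (-1.03) and DTYMK (-0.84). Other probe sets of MCM7 (-1.01), SLBP (-0.98) and MCM3 (-0.86) lay below DTYMK as well. The second RRM2 probe set, at -0.92, lay above those of MCM4, MCM7 and SLBP. TK1 had the opposite placement, with 1 of 29 lower than it with siRNA 1 and 18 of 29 with siRNA 2. RRM1 was lower than control by less than most of them, with 20 of 29 below it for siRNA 1 and 25 of 29 for siRNA 2. RFC3 and RFC4, subunits of the clamp loader, had -1.13 and -1.01 with siRNA 1 and -0.66 and -0.70 with siRNA 2. CHAF1A, a chromatin assembly factor, had -1.06 with siRNA 1 and -0.72 with siRNA 2. POLE2, a subunit of the leading-strand polymerase, had -1.75 with siRNA 1 and -0.46 with siRNA 2. MCM2, a subunit of the replicative helicase, had -1.44 with siRNA 1 and -0.51 with siRNA 2. CCNE2, a G1/S cyclin, had -0.70 and -0.73. The related CCNE1 was the exception in this list, at 0.23 with siRNA 1 and 0.37 with siRNA 2. The next highest by that mean were MSH6, a mismatch repair protein, at -0.26 and -0.14, and LIG1, a DNA ligase, at -0.33 and -0.14. The other 4 LIG1 probe sets were all lower than this, from -0.83 to -0.64 with siRNA 1 and from -0.45 to -0.20 with siRNA 2.

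**Figure D5:**
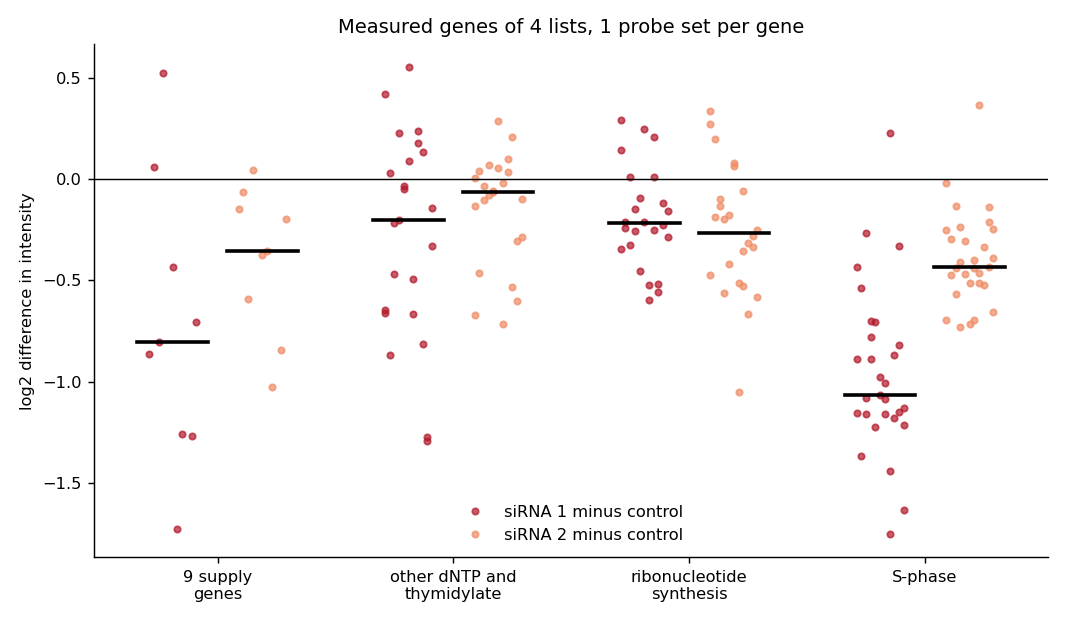
log2 difference in intensity from control for the measured genes of 4 lists, 1 probe set per gene, siRNA 1 left of siRNA 2 in each list, with the median as a black bar. The 9 members have medians of -0.80 and -0.36, and the S-phase genes of -1.06 and -0.43.

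Regulators of the member genes and proteins were read in the same way, and 20 of 21 were measured. E2F1, an activator of S-phase transcription that is also in the S-phase list, had intensities of 65.5 with siRNA 1 and 171 with siRNA 2, against 203 in control. Its pattern, far lower with siRNA 1 and slightly lower with siRNA 2, was like that of TK1 and RRM1. E2F3 did not share this pattern, at 0.20 with siRNA 1 and 0.04 with siRNA 2 by its brightest probe set. Its other 2 ranged from 0.14 to 0.20 with siRNA 1 and from -0.05 to 0.12 with siRNA 2. TFDP1 had -0.24 and -0.22 by its brightest probe set. The repressor E2F7 had -1.15 with siRNA 1 and -0.43 with siRNA 2, and E2F8 had -1.10 and -0.50. CCNF, the F-box protein that directs degradation of RRM2 in G2, had -0.82 and -0.12 by its brightest probe set and -0.29 and -0.05 by the other. CCNA2, the cyclin of S and G2 phase, had -1.22 and -0.44 by its brightest probe set and -1.81 and -0.80 by the other. CHEK1, a replication checkpoint kinase, had -1.03 and -0.33 by its brightest probe set. Its other 5 ranged from -1.28 to -0.71 with siRNA 1 and from -0.83 to -0.36 with siRNA 2. NFYA, a subunit of the factor that binds CCAAT, had 0.88 with siRNA 1 and -0.33 with siRNA 2 by its brightest probe set. Its other 2 ranged from 0.14 to 0.88 with siRNA 1 and from -0.08 to 0.23 with siRNA 2, so the siRNA 2 direction was not shared. CDKN1A, the p21 inhibitor of cyclin-dependent kinases, had intensities of 6551 with siRNA 1 and 5642 with siRNA 2, against 3129 in control. MDM2, a ubiquitin ligase, had differences of 1.00 and 0.18 by its brightest probe set, and its others ranged from 0.24 to 1.27 with siRNA 1 and from -0.44 to 0.24 with siRNA 2. By the brightest probe set of each gene, 8 of 20 were at least 1.5-fold lower and 3 higher with siRNA 1, and 0 lower and 1 higher with siRNA 2. The 0 depends on that choice, as other probe sets of CCNA2, CHEK1 and CDC27 were past 1.5-fold lower with siRNA 2. Over all measured genes 6.15% were that much lower and 6.93% higher with siRNA 1, and 4.67% lower and 4.75% higher with siRNA 2, so that the 1 of 20 higher with siRNA 2 lay at the background.

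Genes whose pair of differences lay nearest to that of RRM2 were found by Euclidean distance over the 3 arrays, a measure with only 2 values per gene. They were HPSE, HASPIN, CTSV, KIAA1191 and NEK2, at distances of 0.11 to 0.17 on the log2 scale. NEK2, a mitotic kinase, had intensities of 112 with siRNA 1 and 150 with siRNA 2, against 273 in control. HASPIN was below the floor with siRNA 1, so its siRNA 1 difference is a bound. Within 0.25 of RRM2 lay 16 of 11296 genes, so its position was sparsely filled. For the brightest RRM2B probe set the nearest were FAM200A, ZNF761, HSDL1, REEP5 and ODAM, and 823 of 11296 genes lay within 0.25. RRM2B thus sat where many genes of the array sat.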

How the data were processed

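Per the labels' protocols, biotin-tagged cRNA was made from total RNA, cut into fragments and hybridised. The authors deposited a linear intensity for each probe set and array, made with GCOS 1.4 per the submitters' processing notes. How background, summarisation and scaling were handled is not given in the sources used here. No normalization was added. Values under the floor, the 50th percentile of all values, were raised to it before log2 was taken. Gene symbols came from the platform annotation, where 44988 probe sets had 1 symbol, 1831 several and 2569 none. Only those with 1 were used.

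With 1 array per group, results are counts past 2-fold and 1.5-fold set beside the share of all measured probe sets. Counts below control were taken for each siRNA separately and not jointly, because both share the control array. All members were named with their probe sets. From other lists the rule named genes at least 1.5-fold from control in the same direction with both siRNAs, or among the 3 largest differences in either direction, and allowed any measured regulator, some of which are named. The members and lists were chosen with earlier results of these data known. Promoter windows were RefSeq, GRCh38.p14. The counting was checked on simulated data. Alternatives changed the floor, scaling, probe sets, threshold and the value taken for a gene. Python 3.11.15, numpy 2.4.6 and pandas 2.3.3 were used, with matplotlib 3.10.9 for plots. One of the lists examined is not reported here.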

Additional observations from a re-analysis of the deposited data

How the results depend on the processing

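The number of arrays, 1 per group, limits every value, and dim probe sets near the floor of 25.96 are the least certain. Of 184 values recomputed under alternatives, 164 were classed as the same, 18 as moved and 2 as reversed. A value classed as the same could still shift, as DUT with siRNA 1 went from -0.60 to -0.80 under a floor at the 75th percentile. The member probe sets at least 2-fold lower numbered 5 with siRNA 1, 1 with siRNA 2 and 2 for siRNA 1 against siRNA 2. At 1.5-fold they numbered 14, 7 and 5. With plain _at probe sets only, which leaves 3 measured ones, from RRM2B, TK1 and DCK, they numbered 1, 0 and 1. The counts lower by any amount, 20 with siRNA 1 and 22 with siRNA 2, were then 2 and 2, because fewer were counted, and RRM2 minus RRM2B could not be given. SAMHD1 with siRNA 1 was -0.027 in place of 0.06, both under a floor at the 25th percentile and without a floor, which adds its dimmest probe set. RRM2B with its brightest probe set alone was 0.52 with siRNA 1 and 0.04 with siRNA 2, in place of 0.07 and 0.23, and TYMS with siRNA 2 was -0.20 in place of -0.37. Keeping the 24 member probe sets above the floor on all arrays was an alternative chosen after seeing the data. No paired analysis was possible because each group holds 1 array.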
